A study of Mus musculus with 4 samples.

Results

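The granule and calprotectin genes described here are 10 mouse transcripts, S100a8, S100a9, Ngp, Camp, Ltf, Lcn2, Chil3, Retnlg, Wfdc21 and Wfdc17, picked by symbol out of 31053 genes. All 10 were found in the gene list. They were chosen with their levels in these cells known, so every level and ratio below is a description and no p-value is given. The RNA came from colon tumours of female C57BL/6 mice, raised with azoxymethane, a carcinogen (12.5 mg/kg), and 3 cycles of dextran sulphate sodium, which injures the gut lining (2.5%, then 2% in the last cycle, 5 days each), and collected 30 days later. The 4 labelled samples are sorted CD45+ immune and CD45- non-immune cells of EgfrΔMYL mice, in which Egfr is deleted in the myeloid lineage, and of Egfr fl/fl mice, which carry the same floxed gene. The driver of the deletion and the animals' ages are not given in the sources used here. The counts came as 1 matrix of 18026 barcodes with 4 suffixes, called libraries 1 to 4, that no source used here pairs with the samples. No genotype or sort was therefore compared, and the deletion could not be checked per library.

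Neutrophils leave the bone marrow loaded with granules. The proteins of the secondary and tertiary granules are made in the marrow, in stages, while the transcripts of calprotectin stay abundant in mature cells. S100a8 and S100a9 encode the subunits of calprotectin, which binds calcium and zinc and withholds metals from microbes. Ngp (neutrophilic granule protein), Camp (the cathelicidin antimicrobial peptide) and Ltf (the iron-binding lactoferrin) are secondary granule genes of immature neutrophils. Lcn2 (lipocalin 2) binds bacterial siderophores and is made by neutrophils and by inflamed epithelium. Chil3 is a chitinase-like protein that mouse monocytes, macrophages and immature neutrophils make, Retnlg is a resistin-like protein, and Wfdc21 and Wfdc17 are small proteins with a WAP domain.

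A UMI (unique molecular identifier) marks 1 captured molecule, and CPM is a gene's UMIs in every 1000000 UMIs of a group of barcodes. A filter on genes, UMIs and mitochondrial reads kept 14148 barcodes. The kept barcodes numbered 593, 1700, 4475 and 7380 in libraries 1 to 4, with medians of 4491, 3380, 4911 and 5176 UMIs. Barcodes were clustered without the 10 genes. Haemoglobin took 8.92% of library 1 and 0.00121% to 0.984% of the others, and libraries share 24 barcode sequences in all. Of the 2564 neutrophil-like barcodes, cluster 12 (664 barcodes, median 3518 UMIs) had the higher score of other granule genes minus activation genes, at -2.34, and is called granule-rich. Cluster 10 (1900 barcodes, median 2705 UMIs) scored -5.09 and is called activated. Both scores are below 0, so the names are relative, and Acod1 and Hcar2 together had 5272 CPM in granule-rich and 8401 CPM in activated barcodes. All 9 neutrophil markers were seen in each, at 25029 CPM in granule-rich and 22322 CPM in activated barcodes. Intervals are exact 95% intervals for counting error, which is the only error that 1 matrix without replicates allows. PCR copies were collapsed by UMI, but cells of 1 tumour are not independent, so an interval says nothing of the spread between mice.

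The members lie in small groups on the mouse genome (mm10, annotated by GENCODE M21). S100a8 (ENSMUSG00000056054, chr3:90668978-90670035, plus strand) and S100a9 (ENSMUSG00000056071, chr3:90692632-90695721, minus strand) are 22.6 kb apart and point at each other. Camp (ENSMUSG00000038357, chr9:109847379-109849617, minus), Ngp (ENSMUSG00000032484, chr9:110419747-110423012, plus) and Ltf (ENSMUSG00000032496, chr9:111019271-111042767, plus) fall within 1195 kb of chromosome 9. Wfdc17 (ENSMUSG00000069792, chr11:83703991-83706268, plus) and Wfdc21 (ENSMUSG00000051748, chr11:83746940-83752642, plus) are 40.7 kb apart. Lcn2 (ENSMUSG00000026822, chr2:32384633-32388252, minus), Chil3 (ENSMUSG00000040809, chr3:106147554-106167564, minus) and Retnlg (ENSMUSG00000022651, chr16:48872621-48874496, plus) stand alone. All 10 are protein-coding genes, and the 3′ kit counts the ends of their transcripts.

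Promoters are shown for the granule genes whose transcripts turn out to sit in the same barcodes, and for Lcn2, which epithelial cells also carry. RefSeq start sites (GRCm38.p6) gave a promoter for 9 of the 10 members. The 250 bases before the start are printed 5′ to 3′ on the gene's strand, and capitals mark TTGCNNAA, a C/EBP-type motif, or its reverse complement TTNNGCAA. The windows are chr9:110419558-110419807 (plus) for Ngp, chr9:109849457-109849706 (minus) for Camp, chr9:111019042-111019291 (plus) for Ltf and chr2:32387740-32387989 (minus) for Lcn2. These RefSeq starts differ from the GENCODE positions above. The whole Lcn2 window lies inside the GENCODE gene. The Ngp, Camp and Ltf windows reach into theirs, and the Ngp match nearest the RefSeq start lies past the GENCODE start.
Ngp: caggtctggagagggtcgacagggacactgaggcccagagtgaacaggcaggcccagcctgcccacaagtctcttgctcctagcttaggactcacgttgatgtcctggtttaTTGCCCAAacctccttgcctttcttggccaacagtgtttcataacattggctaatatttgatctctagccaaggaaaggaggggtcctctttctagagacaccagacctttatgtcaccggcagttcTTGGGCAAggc
Camp: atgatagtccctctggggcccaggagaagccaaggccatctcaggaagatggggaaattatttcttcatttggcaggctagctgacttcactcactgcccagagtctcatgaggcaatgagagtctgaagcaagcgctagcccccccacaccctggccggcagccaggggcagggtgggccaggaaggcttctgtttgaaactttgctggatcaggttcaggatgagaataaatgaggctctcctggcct
Ltf: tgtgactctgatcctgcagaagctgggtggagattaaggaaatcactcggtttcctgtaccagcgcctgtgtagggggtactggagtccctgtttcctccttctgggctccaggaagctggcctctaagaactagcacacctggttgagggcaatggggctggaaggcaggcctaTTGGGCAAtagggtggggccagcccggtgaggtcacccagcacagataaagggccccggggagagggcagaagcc
Lcn2: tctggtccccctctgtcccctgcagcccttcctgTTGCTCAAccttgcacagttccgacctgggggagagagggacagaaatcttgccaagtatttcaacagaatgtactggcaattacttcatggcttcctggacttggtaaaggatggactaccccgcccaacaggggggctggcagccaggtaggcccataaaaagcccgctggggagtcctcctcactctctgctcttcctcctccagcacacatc
In windows of 300 bases, which add 50 bases after the start, the motif was found in 5 of the 9 members and in 10.8% of 32544 promoters. Ngp had 2 matches. S100a9, Ltf, Lcn2 and Retnlg had 1 each, and S100a8, Camp, Chil3 and Wfdc17 had none, though Camp shares its barcodes with Ngp and Ltf. GAGGAAG, a PU.1-type motif (reverse complement CTTCCTC), was in S100a8, Lcn2 and Wfdc17 and in 13.4% of promoters. An NF-kB-type motif was in none of the 9 members and in 1.61% of promoters. A match of letters is not a bound site.

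The 10 genes took 27.9% of all UMIs in granule-rich neutrophils and 12.6% in activated neutrophils, most of it calprotectin. S100a8 and S100a9 together made up 24.8% of the UMIs in granule-rich and 11.8% in activated neutrophils. Elsewhere the 10 genes took 3.17% of the UMIs in barcodes that hold both C1q and S100a8/9, 0.594% in C1q-low monocyte-derived cells, 0.0633% in epithelial-like cells and 0.0198% in B-like cells, which should lack them.

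**Figure D1:**
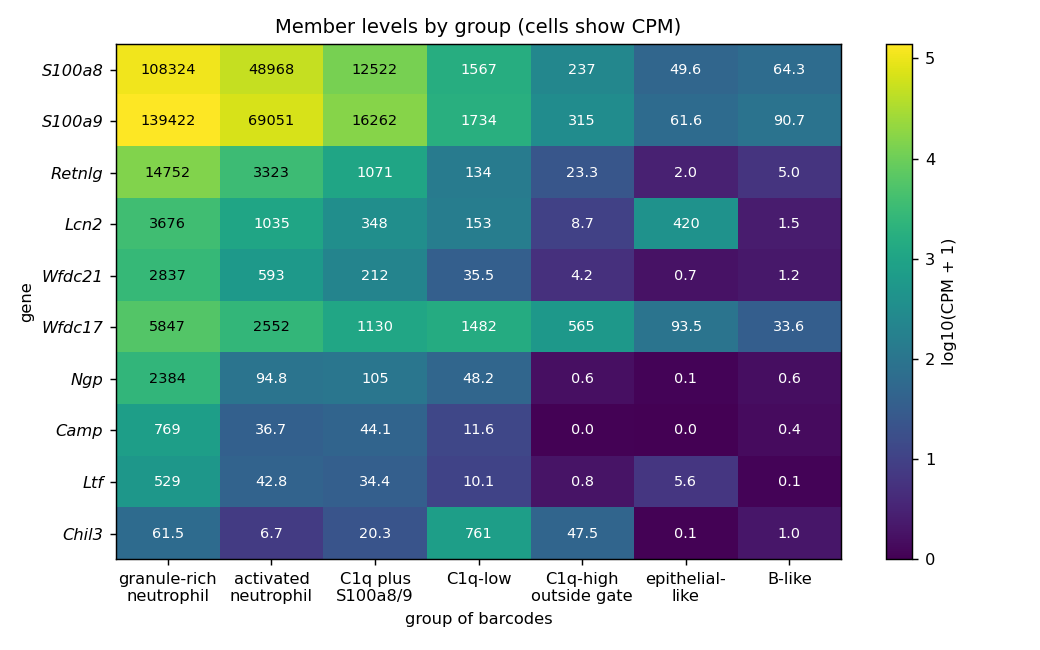
Level of each member (rows, CPM printed in the cells, colour on a log10(CPM + 1) scale) in 7 groups of barcodes (columns). Most rows fade from granule-rich neutrophils to B-like cells, while Chil3 peaks in C1q-low cells at 761 CPM and Lcn2 reappears in epithelial-like cells at 420 CPM.

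Neutrophil-like cells exceeded the mean over the remaining named classes, each class counting equally, by 2-fold or more for 9 of the 10 members, where 6.22% of 17295 genes tested were higher and 64.6% lower. Of those 9, Wfdc17 had the lowest ratio and Ngp the highest, at 7.73 on the log2 scale. Chil3 was the exception, with a log2 ratio of -0.08. The members divide by where their UMIs lie. Neutrophil-like barcodes held 74.5% to 81.5% of the UMIs of S100a8, S100a9, Ngp, Camp, Ltf, Retnlg and Wfdc21. They held 54.6% of the Lcn2 UMIs, with another 25.7% in epithelial-like cells, and 38.9% of the Wfdc17 UMIs, with 49.4% in monocyte/macrophage-like cells. Only 1.94% of the Chil3 UMIs were in neutrophil-like cells, against 79.7% in C1q-low cells.

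Calprotectin was everywhere in the neutrophils. S100a8 had a median of 304.5 UMIs in granule-rich barcodes and of 89 in activated barcodes, at 108324 CPM (107931 to 108719) and 48968 CPM (48783 to 49152). S100a9 had medians of 429.5 and 141 UMIs, at 139422 CPM (138975 to 139869) and 69051 CPM (68833 to 69271). After each barcode was thinned to 1000 UMIs, S100a9 was still seen in 100% of granule-rich and 98.4% of activated barcodes, and in 8.64% of B-like barcodes (median depth before thinning 4028 UMIs). The highest barcode held 4139 S100a9 UMIs. S100a8 stood to S100a9 as 77.7 to 100 in granule-rich and 70.9 to 100 in activated barcodes. Over 2354 thinned neutrophil-like barcodes the pair had a Pearson r of 0.88, given as a description since both share each barcode's depth and library.

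All 10 members were at least 2-fold higher in granule-rich than in activated neutrophils, where 2.05% of 8127 genes tested were higher and 23.6% lower. The cluster was named by other granule genes that travel with these, so the direction was to a degree fixed by the naming. S100a8 and S100a9 differed least, with log2 ratios of 1.15 (1.14 to 1.15) and 1.01 (1.01 to 1.02), and Wfdc17 had 1.20 (1.16 to 1.23).

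Retnlg, Wfdc21 and Lcn2 formed a middle tier. Retnlg reached 14752 CPM (14607 to 14898) in granule-rich and 3323 CPM (3275 to 3371) in activated neutrophils, a log2 ratio of 2.15. Its share of thinned barcodes was 93.1% in granule-rich against 55.5% in activated and 0.332% in B-like cells. Wfdc21 had 2837 CPM and 593 CPM, a log2 ratio of 2.26 (2.20 to 2.32). Lcn2 had 3676 CPM and 1035 CPM, a log2 ratio of 1.83 (1.78 to 1.88). These 3 genes were seen in most granule-rich barcodes, with 73.6% holding Lcn2, 81.5% Wfdc21 and 96.2% Retnlg.

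In granule-rich neutrophils S100a8 stood at 127792 CPM in library 3 and 95767 CPM in library 4, and in activated neutrophils at 43970, 61699 and 46141 CPM in libraries 2, 3 and 4. Library 3 was the higher for every member in granule-rich barcodes except Ltf, at 573 CPM in library 3 and 601 CPM in library 4. Retnlg had 18606 and 12603 CPM in granule-rich barcodes of libraries 3 and 4, and 3440 and 3364 CPM in activated ones. Within library 3, 9 of the 10 members were at least 2-fold higher in granule-rich barcodes, Wfdc17 missing with a log2 ratio of 0.63. Within library 4, 8 were, with S100a9 at 0.92 and Wfdc17 at 0.97. Libraries 1 and 2 had 39 and 48 granule-rich barcodes, too few for a value. When activated barcodes were instead all neutrophils with at least 1 UMI of Acod1 or Hcar2, 39 shallow barcodes were left on the other side (median 1262 UMIs against 2927), and 0 of the 10 members were 2-fold higher in them.

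**Figure D2:**
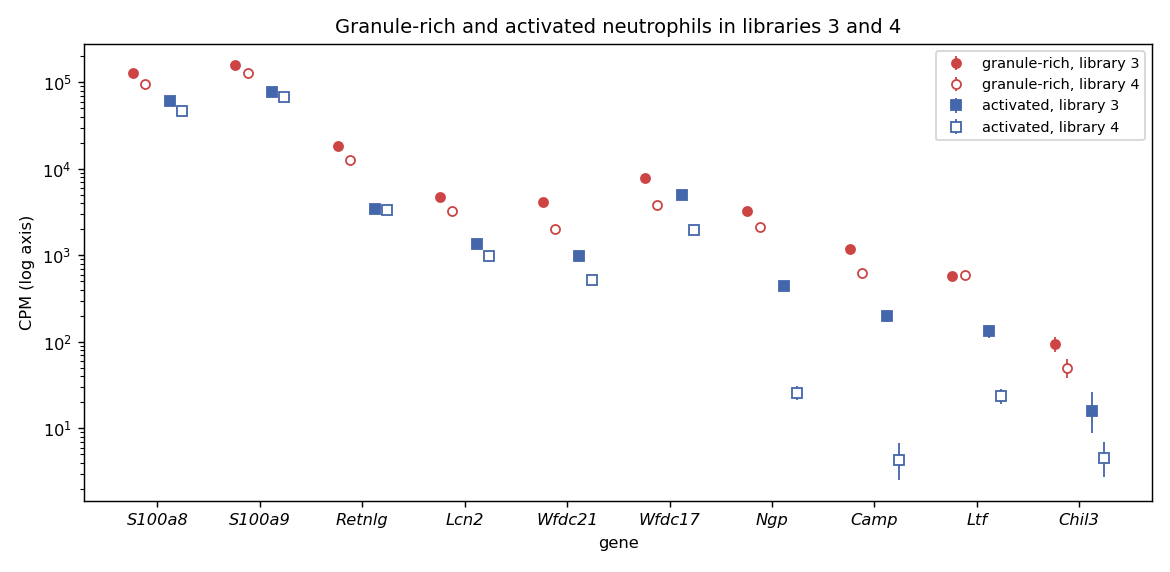
CPM (log axis) of each member in granule-rich (circles) and activated (squares) neutrophils of library 3 (filled) and library 4 (open), with exact 95% Poisson intervals. Granule-rich points lie above activated points of the same library for every gene, and the gap is widest for Ngp and Camp in library 4.

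The secondary granule genes Ngp, Camp and Ltf had the largest ratios, and they came from few barcodes. Ngp had 2384 CPM (2326 to 2444) in granule-rich and 94.8 CPM (86.9 to 103) in activated neutrophils, a log2 ratio of 4.65 (4.52 to 4.78). Camp had 769 CPM and 36.7 CPM, a log2 ratio of 4.39 (4.18 to 4.61), and Ltf had 529 CPM and 42.8 CPM, a log2 ratio of 3.63 (3.43 to 3.83). The median barcode of either group held no UMI of any of them. None of the 3 genes was seen in 536 of the 664 granule-rich barcodes (80.7%), and all 3 were seen in 26 (3.92%).

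Over all kept barcodes, the 2808 Camp UMIs lay in 70 barcodes, and the 10 richest held 80.3% of them. The highest single counts were 1231 Ngp, 444 Camp and 236 Ltf UMIs. Only 60 barcodes held at least 10 UMIs of Ngp, Camp and Ltf together, a limit chosen after the counts were seen, and these 60 held 96.4% of the Ngp, 98.7% of the Camp and 84.4% of the Ltf UMIs. They divide into 43 granule-rich and 4 activated neutrophils, 9 monocyte/macrophage-like barcodes, 3 of the unnamed cluster 28 and 1 epithelial-like barcode. Libraries 1 to 4 held 2, 0, 32 and 26 of them. In granule-rich neutrophils the 43 made up 11.7% of library 3 and 5.00% of library 4. Few barcodes were near the limit, with 16 granule-rich barcodes at 5 to 9 UMIs and 2 at 10 to 14, while 20 reached 100.

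**Figure D3:**
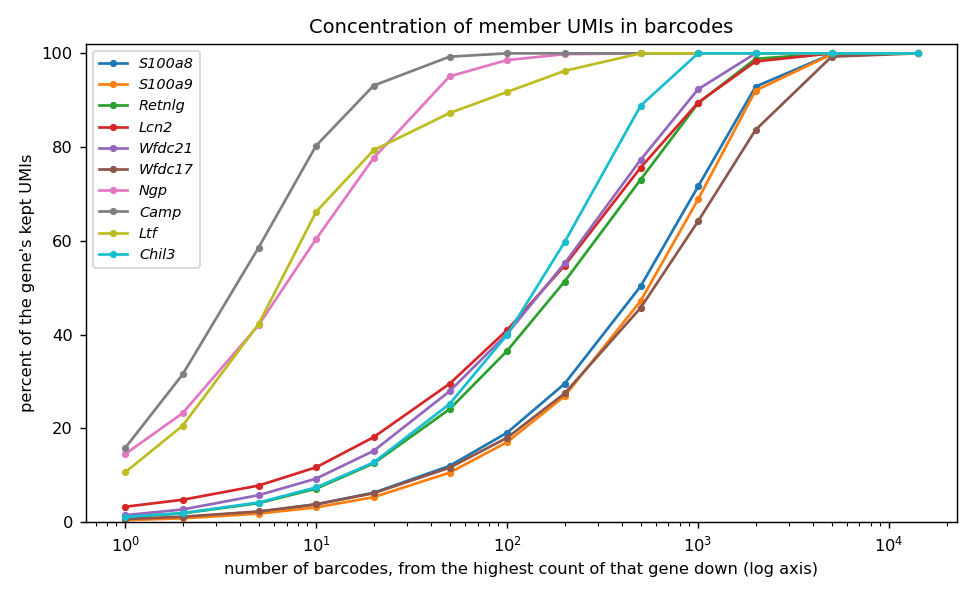
Cumulative percent of each member's UMIs (vertical axis) over barcodes ranked by that gene's own count (horizontal axis, log scale). Camp, Ngp and Ltf rise within the first 100 barcodes, at 10 barcodes Camp has reached 80.3%, and at 1000 barcodes S100a9 has reached 68.9%.

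The 43 granule-rich barcodes with these transcripts were also set apart by members that did not choose them. Their median depth was 8978 UMIs, against 3404 UMIs in the other 621 granule-rich barcodes. Lcn2 had a median of 83 UMIs in the 43 and 3 in the 621, at 11528 CPM and 2345 CPM. Retnlg had medians of 245 and 24 UMIs, at 30643 CPM and 12059 CPM. Chil3 was seen in 21 of the 43 at 409 CPM, against 2.62 CPM from 6 UMIs in all 621 others. The log2 ratio of Chil3 was 7.29 (6.13 to 8.76), and it was 6.72 within library 3 and 8.08 within library 4.

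Wfdc17 ran the other way. It had a median of 3 UMIs in the 43 barcodes and of 8 in the other 621, despite their lower depth, at 1521 CPM and 6580 CPM, a log2 ratio of -2.11 (-2.23 to -1.99). The log2 ratio was -2.22 within library 3 and -2.58 within library 4, and with limits of 5 and 20 UMIs it was -1.60 and -2.44. Il1b and Csf3r, named after their values were seen, were lower in the 43 as well, as were Acod1, Hcar2 and Cxcr2. Il1b, a cytokine, had 9865 CPM against 27875 CPM, and Csf3r, the G-CSF receptor, had 255 CPM against 984 CPM. Mmp8, a collagenase of granules, had 1781 CPM against 399 CPM, and Ly6g was higher in the 43 too, at 492 CPM against 310 CPM (log2 ratio 0.67, 0.43 to 0.90). No UMI of Mki67, a proliferation marker, or of Elane or Mpo, proteins of the primary granules, was counted in the 43, which allows up to 9.49 CPM of each. The other 621 had 6, 0 and 1 UMIs of them, and Mki67 there was at 2.62 CPM, so these genes do not set the 43 apart.

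Granule-rich neutrophils (621 barcodes) were also set against activated neutrophils (1896) without all barcodes of at least 10 such UMIs. This filter used Ngp, Camp and Ltf themselves, so their ratios in what is left are set by it and nothing is read from them. Of the members it did not use, S100a8 (log2 ratio 1.02), Lcn2 (1.22), Retnlg (1.88), Wfdc21 (1.92) and Wfdc17 (1.36) were at least 2-fold higher. Over all 8106 genes tested, 1.55% were higher. S100a9 was just under the limit at a log2 ratio of 0.93, and Chil3 had -0.74 (-2.32 to 0.59).

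Genes that run with these over the 26 clusters of at least 50 barcodes were named by the Pearson r of log2(CPM + 1). Most like the mean of Ngp, Camp and Ltf were Stfa1 (0.95), BC100530 (0.93), 9830107B12Rik (0.91), Mrgpra2a (0.91) and Olfm4 (0.91). Stfa1 and BC100530 are stefins, inhibitors of cysteine proteases, of a family of near-identical copies among which reads may be split. Most like the mean of S100a8 and S100a9 were Il1f9 (0.96), G0s2 (0.94), Csf3r (0.94), Cxcr2 (0.93) and Stfa2l1 (0.92).

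Of 19 other granule genes, 10 were at least 2-fold higher in granule-rich than in activated neutrophils and none lower (median log2 ratio 1.16, against -0.41 over all genes tested), but this list helped to name the clusters. Itgb2l (log2 ratio 4.61), Prok2 (3.63), Ifitm6 (3.28), Mmp8 (2.90) and Ly6g (2.21) led it. Of 6 stefins tested, 4 were higher and 1 lower, with Stfa3 at 3.78 and Cstb at -1.56. Of 9 other S100 genes tested, 0 were higher and 3 lower. S100a6 had 11905 CPM in granule-rich and 7401 CPM in activated neutrophils, a log2 ratio of 0.69, and S100a4 had 8.21 and 21.0 CPM. Among transcription factors of granule genes, Cebpb had 5637 CPM in granule-rich and 5416 CPM in activated neutrophils, and Cebpd had 170 and 161 CPM. Of the 7 regulators tested 0 were higher and 1, Runx1, was lower (log2 ratio -1.04). Of 7 listed primary granule genes present, 1 had enough UMIs to be tested and it passed in neither direction.

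Monocyte-derived cells were divided by C1q, a complement component of resident macrophages. C1q-low cells (1011 barcodes, median 11042 UMIs) had under 200 CPM of C1qa, C1qb and C1qc together, and C1q-high cells (1917 barcodes, median 13295 UMIs) at least 1000. Near the limits lay 110 barcodes at 100 to 200 CPM and 13 just above 1000.

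Chil3 and Wfdc17 were the members at least 2-fold higher in C1q-low than in C1q-high cells, 2 of 10, where 5.85% of 12967 genes tested were higher. Chil3 had 761 CPM (745 to 778) in C1q-low cells and 39.8 CPM (37.5 to 42.2) in C1q-high cells, a log2 ratio of 4.26 (4.17 to 4.35). It was seen in 35.9% of thinned C1q-low barcodes, 2.22% of C1q-high barcodes and 0.0665% of B-like barcodes. The near-identical Chil4 was listed with 0 UMIs in both. By library, Chil3 stood at 868 CPM and 716 CPM in C1q-low cells of libraries 3 and 4, and at 46.5 CPM and 37.1 CPM in C1q-high cells. Wfdc17 had 1482 CPM and 732 CPM, a log2 ratio of 1.02 (0.99 to 1.05). That ratio was 0.62 within library 3 and 1.24 within library 4, so its place above the limit rests on library 4.

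S100a8, S100a9 and Retnlg, 3 of 10 members, were at least 2-fold lower in C1q-low cells, where 30.2% of genes were lower, so the count is near the background. Their direction turned with the barcodes counted. The calls rest on library 4, where the log2 ratios were -1.74, -2.13 and -2.39, since within library 3 they were -0.44, -0.45 and -0.15 and no member was 2-fold lower. S100a8 had 1567 CPM in C1q-low and 3689 CPM in C1q-high cells, a log2 ratio of -1.23. Without cluster 26, the macrophage cluster of 399 barcodes that carries most of the C1q plus S100a8/9 barcodes, S100a8 had 1547 CPM against 496 CPM, a log2 ratio of 1.64 (1.61 to 1.68). All 10 members were then at least 2-fold higher in C1q-low cells, where 7.08% of 12537 genes tested were higher. That removal left 1531 of 1917 C1q-high barcodes but 1009 of 1011 C1q-low ones, so it took calprotectin-rich barcodes almost only from the C1q-high side. The direction was largely set by this, and nothing is read from the count of 10. With the highest doublet scores removed before clustering, S100a8, S100a9 and Retnlg were instead lower still, at log2 ratios of -3.07, -3.24 and -3.89, and Lcn2 had -2.27.

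Within C1q-low cells calprotectin was not shared out evenly. The median barcode held 1 UMI of S100a8 and S100a9 together. The 63 of 1011 barcodes with at least 20 held 96.0% of these UMIs. In those 63, S100a8 reached 19980 CPM, Retnlg 1732 CPM, Ngp 637 CPM and Camp 153 CPM. The Ngp and Camp counts came from few barcodes. Of the 1011 C1q-low barcodes, 985 held no UMI of Ngp, Camp or Ltf, and 3 held at least 10 together. Library 3 had 522 of the C1q-low Ngp UMIs and library 4 had 4. Csf3r, Cxcr2, Il1r2 and Hdc, neutrophil markers that are no members, summed to 1504 CPM in the 63. Doublet scores of the 63 were among the highest in 50.8%.

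The other 948 C1q-low barcodes were chosen by their low S100a8 and S100a9 counts, so nothing is read from those 2 genes there. Retnlg had 4.46 CPM in them, beside 4.98 CPM in B-like cells, and Ngp 0.297 CPM beside 0.586 CPM. Both genes go with S100a9 over thinned C1q-low barcodes (Pearson r 0.70 and 0.34). The choice thus helped to set their levels, and nothing is read from the likeness to B-like cells. In the 948 the same neutrophil markers summed to 339 CPM, and 2.11% had high doublet scores. Chil3 kept 769 CPM and Wfdc17 1439 CPM there, and Lcn2 had 69.2 CPM beside 1.47 CPM in B-like cells. Against the 1479 C1q-high barcodes with fewer than 20 calprotectin UMIs, 5 members were at least 2-fold higher in these 948, where 7.17% of 12433 genes tested were higher. They were Chil3 (log2 ratio 4.01), Lcn2 (3.84, 3.53 to 4.17), Wfdc21 (3.18, 2.47 to 3.96), Ltf (2.79, 1.43 to 4.39) and Wfdc17 (1.36). Retnlg had a log2 ratio of -0.10 (-0.64 to 0.43). By cluster, Lcn2 was higher in the Arg1-led cluster 17, at 237 CPM, than in the Chil3-led cluster 16, at 78.1 CPM.

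Of 9 other S100 genes tested, 4 were at least 2-fold higher in C1q-low than in C1q-high cells and none lower, led by S100a4 at 1166 and 97.7 CPM (log2 ratio 3.58), S100a10 (2.27) and S100a6 (1.69). Slpi, a WAP protease inhibitor, had 3406 and 340 CPM. Of 18 other granule genes tested, 10 were higher and 3 lower, among them Ifitm6 (3.46) and Hp, haptoglobin (3.43).

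**Figure D4:**
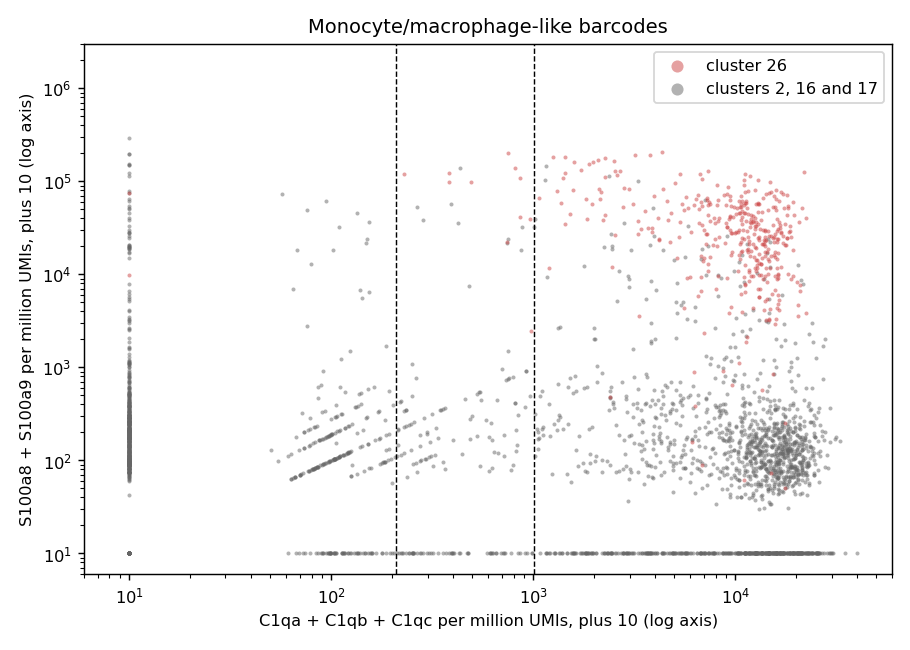
Summed S100a8 and S100a9 (vertical) against summed C1qa, C1qb and C1qc (horizontal), both as CPM of a barcode plus 10 on log axes, for 3093 monocyte/macrophage-like barcodes. Dashed lines mark the C1q limits, and cluster 26 (399 barcodes) lies high on the vertical axis, at a median of 29043 CPM of calprotectin.

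The third setting was barcodes with at least 10 C1q and at least 20 S100a8/9 UMIs, whichever cluster they fell in. There were 436, 79 in library 3 and 357 in library 4, and 343 of them (78.7%) belonged to cluster 26. Their C1q stood at 11542 CPM, beside 13706 CPM in the 1512 C1q-high barcodes outside the gate, and their median depth was 17280 UMIs beside 12279. The 9 neutrophil markers summed to 5189 CPM, beside 948 CPM outside the gate and 23205 CPM in neutrophil-like cells. High doublet scores were found in 40.1% of them and in 4.70% of those outside.

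Calprotectin, which set the gate, had 12522 CPM of S100a8 and 16262 CPM of S100a9 in these barcodes. Of the 8 members that the gate did not use, 6 were at least 2-fold higher than in C1q-high barcodes outside it. Over all 12472 genes tested, 5.16% were higher and 3.1% lower. Retnlg, Lcn2 and Wfdc21 go with S100a8 in thinned neutrophil-like barcodes (Pearson r 0.48, 0.35 and 0.39). The gate thus fixed the direction to a degree, and nothing is read from the count of 6. Retnlg had 1071 CPM against 23.3 CPM (log2 ratio 5.52, 5.39 to 5.66). Lcn2 had 348 against 8.70 CPM (5.32), and Wfdc21 had 212 against 4.25 CPM (5.64). Wfdc17 was just under the limit at a log2 ratio of 1.00 (0.96 to 1.04), though it had 1.26 within library 3 and 1.08 within library 4. Chil3 was 2-fold lower, with 20.3 CPM against 47.5 CPM (-1.23, -1.47 to -0.99). That call rests on library 4, with 15.8 CPM against 47.3 CPM (-1.58), since library 3 had 40.2 CPM against 47.9 CPM (-0.25).

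Ngp, Camp and Ltf had 105, 44.1 and 34.4 CPM in these barcodes, but the counts came from few of them. Of the 865 Ngp UMIs 741 were in 1 barcode, as were 300 of the 363 Camp UMIs, and 4 of the 436 barcodes held at least 10 UMIs of the 3 genes. Library 3 had 532 CPM of Ngp and library 4 had 8.65 CPM.

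Relative to S100a9 these members stood in proportions like those of neutrophils. Per 100 S100a9 UMIs, C1q plus S100a8/9 barcodes held 77.0 S100a8, 6.59 Retnlg, 2.14 Lcn2 and 1.30 Wfdc21 UMIs. All neutrophil-like cells held 74.3, 7.66, 2.06 and 1.44, and the C1q-high barcodes outside the gate held 75.4, 7.41, 2.76 and 1.35. B-like cells, where the same genes are background, held 70.9, 5.49, 1.62 and 1.29. Whether these UMIs are of the macrophages, of neutrophils in the same droplet or of free RNA was not tested. Library 3 had 8.29 Retnlg UMIs per 100 in these barcodes and 9.40 in its neutrophils, and library 4 had 5.97 and 6.86. Among other neutrophil genes, 13 of 18 granule genes tested were at least 2-fold higher than outside the gate and 0 lower. Of 6 stefins, 5 were higher, led by Stfa1 (log2 ratio 7.93, from 300 and 3 UMIs).

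**Figure D5:**
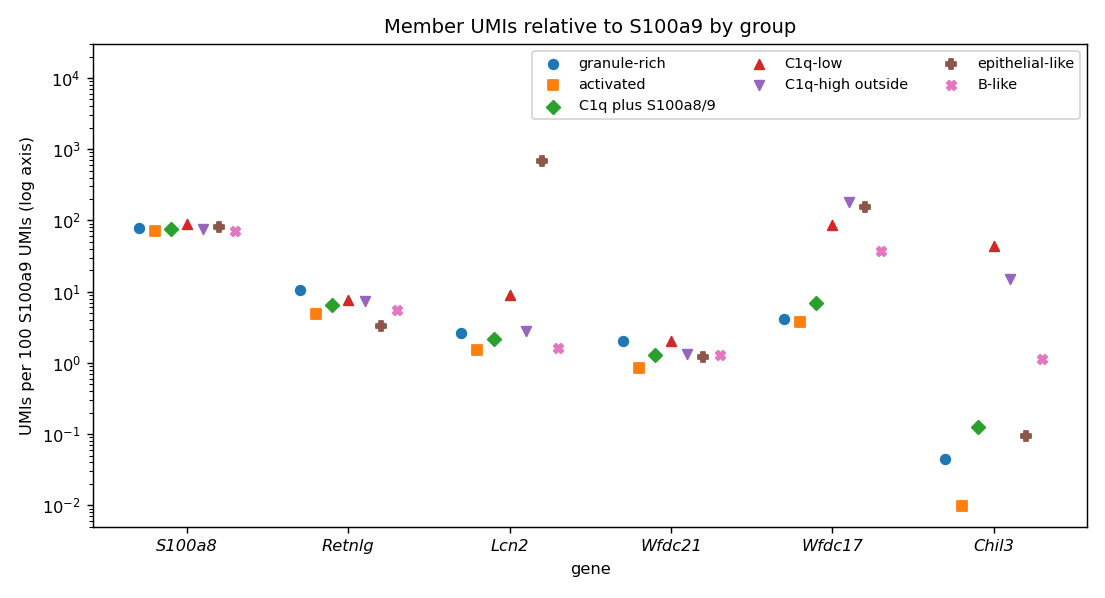
UMIs of 6 members per 100 S100a9 UMIs (log axis) in 7 groups of barcodes. S100a8 stays between 70.9 and 90.4 in all of them, C1q plus S100a8/9 barcodes lie beside both neutrophil groups for Retnlg, Lcn2 and Wfdc21, and Lcn2 in epithelial-like cells reaches 682.

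In epithelial-like cells (1792 barcodes, median 5091 UMIs) Lcn2 was the member that stood out. It had 420 CPM (410 to 430), against 1.47 CPM (0.70 to 2.69) from 10 UMIs in B-like cells. S100a8 had 49.6 CPM against 64.3 CPM, and Camp was not counted in epithelial-like cells, where the floor of 3 UMIs is 0.171 CPM. Of the 7 members tested, Lcn2 (log2 ratio 8.16, 7.28 to 9.22), Ltf (5.26, 2.74 to 10.6, from 98 and 1 UMIs) and Wfdc17 (1.48, 1.28 to 1.68) were at least 2-fold higher. That is 3 of 7, where 42.6% of 14416 genes tested were higher, so the count is near the background, and 13.7% were lower. With barcodes of at least 1000 UMIs, Wfdc17 turned to a log2 ratio of -0.35. The shift was not particular to Wfdc17. At that setting S100a8, S100a9, Ngp, Retnlg and Wfdc21 had log2 ratios of -5.04, -5.09, -6.05, -6.38 and -5.69. The cause was not tested. Csf3r, Cxcr2, Il1r2 and Hdc summed to 9.60 CPM in epithelial-like and 20.8 CPM in B-like cells. Of the epithelial-like barcodes 399 and 1267 came from libraries 1 and 2, while the B-like ones came from libraries 3 and 4 (1157 and 423). Library 4 alone held enough of both, and its 84 epithelial-like barcodes had 23.0 CPM of Lcn2 from 10 UMIs, against 1.70 CPM from 3 UMIs in B-like cells, with S100a9 at 1145 CPM against 136 CPM. For libraries 1 and 2, where epithelial Lcn2 stood at 346 and 469 CPM, library and class cannot be told apart in this comparison.

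Within library 2, the 62 fibroblast-like barcodes had 277 CPM of Lcn2 (202 to 370) from 45 UMIs, and the epithelial-like ones had 469 CPM (456 to 481), a log2 ratio of 0.76. Ltf there had a log2 ratio of -0.30, from 60 UMIs in epithelial-like and 1 in fibroblast-like barcodes. Neutrophil-like barcodes of library 2 held 1.55 Lcn2 UMIs per 100 S100a9 UMIs, and epithelial-like ones 1220. Epithelial Lcn2 also appeared without calprotectin. Of the 499 epithelial-like barcodes with Lcn2, 421 (84.4%) had no S100a8 or S100a9 UMI, and they held 70.6% of the Lcn2 UMIs. Calprotectin was scarce in the class as a whole, with a median of 0 UMIs and 72.8% of its UMIs in 9 of 1792 barcodes. The 84.4% is therefore not read as a trait of the barcodes with Lcn2. The richest barcode held 937 Lcn2 UMIs, and 125 held at least 10.

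The epithelial clusters differed widely. Lcn2 stood at 1506 CPM in cluster 0 (464 barcodes, led by Plat and Krt17), 574 CPM in cluster 4 (453, led by Ptn) and 133 CPM in cluster 5 (599, led by Saa1). It stood at 41.2 CPM in cluster 3 (143, led by Muc3) and 5.22 CPM in cluster 1 (109, led by Lyz1). S100a8 differed by cluster too, at 262, 11.9, 114, 5.52 and 3.80 CPM in clusters 0, 4, 5, 3 and 1. B-like cells had 64.3 CPM of it, so the similar level of the whole epithelial-like class hides clusters above and below. Cluster 0 was shallow, with medians of 1876 UMIs and 8.04% mitochondrial UMIs, while cluster 4 had a median of 15807 UMIs. Erythroid markers summed to 4391 CPM in epithelial-like cells, against 19.6 CPM in B-like cells. Cluster 0 scored higher on the erythroid list (7.10) than on the epithelial one (6.44), and cluster 5 had 6.14 and 6.44. None of the 10 leading genes of either was an erythroid marker, both were called epithelial-like, and they hold 1063 of the 1792 barcodes. Without these 2 clusters Lcn2 had a log2 ratio of 7.89 over B-like cells. The part of erythroid RNA in these levels was not tested. Ltf was seen in 56 epithelial-like barcodes, 28 of which also held Lcn2, and in 1 of them it reached 17 UMIs. Wfdc17 was seen in 531, at 91.5 CPM in library 1 and 93.3 CPM in library 2. Related genes of the same families were much more abundant in these cells, with Wfdc18 at 3330 CPM, S100a6 at 6233 CPM and S100a14 at 352 CPM, against 1.32, 53.9 and 0.147 CPM in B-like cells.

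Other classes carried members at low or uneven levels. T-like cells had 1367 CPM of S100a8 in library 4 and 46.8 CPM in library 3, where B-like cells had 79.1 CPM in library 4 and 59.2 CPM in library 3. The T-like cells include cluster 7 (621 barcodes), led by natural killer genes such as Klrd1, which scored 6.09 on the T list and 5.85 on the natural killer list. The median T-like barcode held 0 calprotectin UMIs, and the 50 of 2849 barcodes with at least 20 held 91.4% of them. Basophil-like cells (123 barcodes) had 3718 CPM of S100a8 and 2497 CPM of S100a9, or 149 S100a8 per 100 S100a9 UMIs, where neutrophil-like cells had 74.3, and within library 2 the proportion was 133 against 73.8. Their Retnlg was 1.84 per 100 S100a9 UMIs, against 7.66. The median basophil-like barcode held 0 calprotectin UMIs, and the 25 of 123 with at least 20 held 91.9% of them. That cluster scored 8.62 on the basophil list and 2.20 on the neutrophil list. Cluster 28, 35 barcodes with B cell markers of which 68.6% had high doublet scores, gave 10.2% of its UMIs to the members.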

How the data were processed

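Sorted colon tumour cells went through 10x Genomics 3′ V3 chemistry, per the labels' protocols. The authors deposited raw UMI counts for each gene and barcode, made with Cell Ranger 3.0.2 on mm10, per the submitters' processing notes; which annotation they used is not stated. The 4 barcode suffixes could not be paired with samples, so the labelled groups entered no comparison.

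Kept barcodes had at least 200 genes, at least 500 UMIs and no more than 20% mitochondrial UMIs. Scrublet (expected rate 6%) marked 50 barcodes (0.352%), which were dropped; so low a share means that the caller did not work, and doublets remain. "High doublet scores" are the 625 highest, 0.8% per 1000 barcodes in each library. Counts scaled to 10000 were clustered in scanpy 1.11.5 (2000 variable genes, 30 components, 15 neighbours, Leiden resolution 1, igraph 0.11.9), leaving out the members and ribosomal, mitochondrial, haemoglobin, immunoglobulin, T cell receptor, Y-linked and Xist genes. Names came from 14 marker lists (score 2 or more, lead 1.5 or more, 3 or more markers and 50% of the list seen in 10% of barcodes), with limits set after the data had been opened. The lead was waived between T and natural killer, B and plasma, dendritic and plasmacytoid, and mast and basophil lists. An erythroid runner-up was ignored, and where the erythroid list led with none of its markers among the 10 leading genes, the next list gave the name. A cluster far shallower than its libraries with no marker among its 10 leading genes stayed unnamed. A class needed 50 barcodes.

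UMIs were summed per group and divided by the group total (CPM), with exact Poisson intervals, exact binomial intervals for shares and exact conditional binomial intervals for ratios (scipy 1.17.1). A pooled matrix has no replicates, so no p-value was computed. A gene counted as tested with at least 10 UMIs in the higher group and as called at 2-fold, and 0 UMIs were set against a floor of 3. The calculation was tested on simulated data. Neutrophil clusters were placed by other granule genes minus activation genes. Named genes are the members, up to 5 extreme genes of each of 8 related lists and the 5 genes most like each of 2 member means (at least 200 UMIs). The members and lists were chosen with earlier results of these data known. Promoters came from RefSeq (GRCm38.p6) and positions from GENCODE M21, both of the files' build. Alternatives covered scaling, filters, doublets, depth, resolution, gates and libraries.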

Additional observations from a re-analysis of the deposited data

How the results depend on the processing

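No paired analysis was possible because the counts are 1 pooled matrix whose barcodes are not mapped to samples. Of 83 recomputed counts of members, 74 stayed within 1.5 times the count reported. The log2 ratios of single members were less stable. Of 802 recomputed, 276 were classed as the same, 507 as moved and 19 as reversed. The number of members at least 2-fold higher in C1q-low than in C1q-high cells, 2 as reported, was 1 with the mean of per-barcode CPM, without library 4, with at least 1000 UMIs, with members among the clustering features and with whole clusters. It was 5 at 10% mitochondrial UMIs or less and 5 without barcodes of at least 20 calprotectin UMIs, and 10 without cluster 26, where S100a8, S100a9 and Retnlg turned to log2 ratios of 1.64, 1.44 and 1.80. Leaving out cluster 26 took barcodes almost only from the C1q-high side (1917 to 1531, against 1011 to 1009). Without the calprotectin barcodes S100a8 and S100a9, which chose them, turned to 0.70 and 0.081. With the highest doublet scores removed the count was 2, while S100a8, S100a9, Retnlg and Lcn2 had -3.07, -3.24, -3.89 and -2.27. The 10 members higher in granule-rich neutrophils became 0 when activated barcodes were those with at least 1 Acod1 or Hcar2 UMI, which left 39 others (median 1262 UMIs, against 2927). There S100a8, S100a9, Ngp, Camp, Ltf, Lcn2, Retnlg, Wfdc21 and Wfdc17 had log2 ratios of -0.74, -0.71, -5.67, -2.48, -2.02, -2.38, -1.67, -1.87 and -3.14, and the cause beyond depth was not tested. Without barcodes of at least 10 Ngp, Camp and Ltf UMIs, Ltf, which helped to choose them, turned to -2.11, and Chil3 turned to -0.74. For epithelial-like against B-like cells, Wfdc17 turned to -0.35 with at least 1000 UMIs, and Ltf to -0.30 against fibroblast-like cells of library 2. With at least 1000 UMIs, S100a8, S100a9, Ngp, Retnlg and Wfdc21 also fell, to -5.04, -5.09, -6.05, -6.38 and -5.69. Chil3 in C1q plus S100a8/9 barcodes turned to 0.73 when Csf3r, Cxcr2, Il1r2 and Hdc set the gate. At resolution 0.5 the neutrophils were 1 cluster and gave no value. The alternatives on cluster 26, fibroblast-like cells, epithelial clusters 0 and 5, calprotectin barcodes and Ngp, Camp and Ltf barcodes were chosen after seeing the data. Values printed with few UMIs are limited by depth.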
